A study of Elaeis guineensis with 15 samples.

Results

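Of the 51804 contigs assembled from oil palm (Elaeis guineensis) fruit base tissue, 2 were examined: CL1Contig10844, which encodes a jacalin lectin family protein, and CL1Contig7526, which encodes the cytochrome P450 EgCYP71B35. They were chosen on measured values, as contigs with reads in the abscission zone (AZ) of immature and ripe fruit, 30 and 150 days after pollination (DAP), and almost none in the pedicel, so their AZ and pedicel levels are given as a description, with no test. The choice did not name their change after ethylene, the difference between the AZ of the 2 ages or their level in field fruit. In the ethylene experiment at 30 DAP, though, both contigs had reads only in treated samples. Their rise there is thus in part fixed by the choice. Both are also in the study's annotation tables, which list contigs that the study called in ripe AZ after ethylene. That change, and with it the difference from immature AZ, is thus in part fixed too. 

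Jacalin-related lectins are proteins that bind sugars such as mannose or galactose, and in plants many are known from defence and stress responses. Enzymes of the CYP71 family are heme monooxygenases that sit in the endoplasmic reticulum membrane, take electrons from the NADPH-cytochrome P450 reductase and act mostly in specialized metabolism. The AZ is the layer of small, dense cells at the fruit base where the wall between neighbouring cells is taken apart when the fruit is shed, and ethylene is the hormone that sets this off in ripe oil palm fruit.

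In the ethylene experiment, spikelets of the tenera clone C were held in 10 μl/l ethylene for 3, 6 or 9 h, and untreated spikelets gave the 0 h samples. The fruit base with the AZ was taken at 150 DAP (AZ150, ripe fruit) and at 30 DAP (AZ30, immature fruit), and the neighbouring pedicel at 150 DAP (P150). The age of the pedicel is that of the sample labels, and a single sentence of the study's methods gives another age, 30 DAP. Many AZ pieces were pooled in each sample, and the 3 tissues at 4 times gave 12 Roche 454 libraries with no replicate. Natural shedding was followed in 3 Illumina libraries of field AZ tissue, taken at 30 DAP, at 120 DAP, when no fruit was shed, and at 160 DAP, when shedding was seen. Untreated samples were taken only at 0 h, so ethylene and the time since the start of treatment cannot be told apart.

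The 454 libraries held 26560 to 302391 reads in contigs. The shallowest were AZ30 at 0 h with 26560 reads and P150 at 9 h with 41588 reads. Levels are reads of a contig per 100000 reads in contigs, so 1 read stood for 3.77 in the 0 h library of AZ30 and for 0.466 in its 9 h library. Intervals are exact 95% binomial intervals and cover counting error only. Contig lengths were not used, so in the ethylene experiment a level is compared between libraries for 1 contig, and not between contigs. Where a library had 0 reads, the fold was computed with 3 reads in their place and is marked "at least"; the lower end of the exact 95% interval lies below it and stands beside it. Of 3 polygalacturonase contigs of cell separation (EgPG4, EgPGAZ1 and EgPGAZ2), the summed level was 1.95 to 551 in AZ150, 0 to 73.7 in AZ30 and 0 to 4.81 in P150, and EgPG4 had no read in any P150 library. Of 3 carotenoid enzyme contigs typical of ripe mesocarp, the flesh next to the AZ, all 3 had reads in each tissue, with summed levels of 19.5 to 130 in AZ150, 7.66 to 21.5 in AZ30 and 7.24 to 59.9 in P150. They did not share a tissue pattern. With the libraries of a tissue pooled, the phytoene synthase contigs were higher in P150 (12.3 and 11.9) than in AZ150 (8.90 and 6.20). These P150 values lean on the 6 h library, which holds 83 of the 94 and 72 of the 91 reads. At 9 h the first was higher in AZ150 (18.9) than in P150 (7.21), and the second was lower in AZ150 (9.44) than in P150 (12.0). Phytoene desaturase was higher in AZ150 (64.7) than in P150 (5.36).

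The jacalin lectin contig had reads in 7 of the 8 AZ libraries and in 1 of the 4 pedicel libraries. It had 67.2, 21.3, 71.9 and 260 reads per 100000 at 0, 3, 6 and 9 h in AZ150 (69, 12, 61 and 331 reads). In AZ30 it had 0, 52.6, 62.6 and 483 reads per 100000 at the same times (0, 57, 49 and 1035 reads). In P150 a single read was found, at 6 h (0.331 per 100000), and the other 3 libraries had none, although the P150 libraries of 0, 3 and 6 h held 200221 to 302391 reads each. All 4 AZ150 libraries and the 3 treated AZ30 libraries lay above every P150 library. The mean over the 4 libraries of a tissue was 105 in AZ150 and 149 in AZ30, against 0.0827 in P150. With the reads of the 4 libraries pooled, the level was 128 per 100000 in AZ150 (95% interval 116 to 140) and 267 in AZ30 (252 to 283), against 0.131 in P150 (0.00331 to 0.728). The pooled values lean on the 9 h libraries, and above all on AZ30 at 9 h, which holds 1035 of the 1141 AZ30 reads. Without the 9 h libraries, which was computed after the data were seen, the pooled level was 58.2 in AZ150 (49.1 to 68.6) and 49.7 in AZ30 (40.7 to 60.1), against 0.138 in P150, so the order of the AZ tissues turned and their intervals overlapped. The ratio of pooled levels over the single pedicel read was 976 for AZ150 (95% interval 174 to 38624) and 2042 for AZ30 (366 to 80714).

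EgCYP71B35 was also low in the pedicel but was not absent there. Its contig CL1Contig7526 had 6.82, 24.8, 21.2 and 75.5 reads per 100000 at 0, 3, 6 and 9 h in AZ150 (7, 14, 18 and 96 reads). In AZ30 it had 0, 4.61, 2.55 and 57.4 reads per 100000 (0, 5, 2 and 123 reads). In P150 it had 0, 0.499, 1.32 and 4.81 reads per 100000 (0, 1, 4 and 2 reads). The AZ150 libraries all lay above the P150 libraries, but the AZ30 libraries overlapped them: 4.61 and 2.55 in AZ30 at 3 and 6 h lay below the 4.81 of P150 at 9 h, a value that rests on 2 reads. The mean over the 4 libraries of a tissue was 32.1 in AZ150 and 16.1 in AZ30, against 1.66 in P150, which gives ratios over P150 of 19.4 for AZ150 and 9.73 for AZ30. Pooled over the 4 times, the level was 36.4 in AZ150 (95% interval 30.5 to 43.1) and 30.4 in AZ30 (25.4 to 36.1), against 0.915 in P150 (0.368 to 1.88), and the pooled ratio was 39.8 for AZ150 over P150 (18.8 to 101) and 33.2 for AZ30 over P150 (15.7 to 84.3). The AZ30 value rests on its 9 h library, with 123 of 130 reads. Without the 9 h libraries the mean level was 17.6 in AZ150 and 2.39 in AZ30, against 0.607 in P150, a ratio of 29.0 for AZ150 and 3.93 for AZ30, and the pooled level of AZ30 was 3.28 (1.32 to 6.76), against 0.691 in P150 (0.224 to 1.61). At matched times, AZ30 was at 2.55 and P150 at 1.32 at 6 h, a ratio of 1.93 with an interval of 0.175 to 13.5, so at this time the AZ30 and the pedicel were not separable at this depth. These are bulk samples, so fewer cells of a type and less RNA per cell cannot be told apart.

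**Figure D1:**
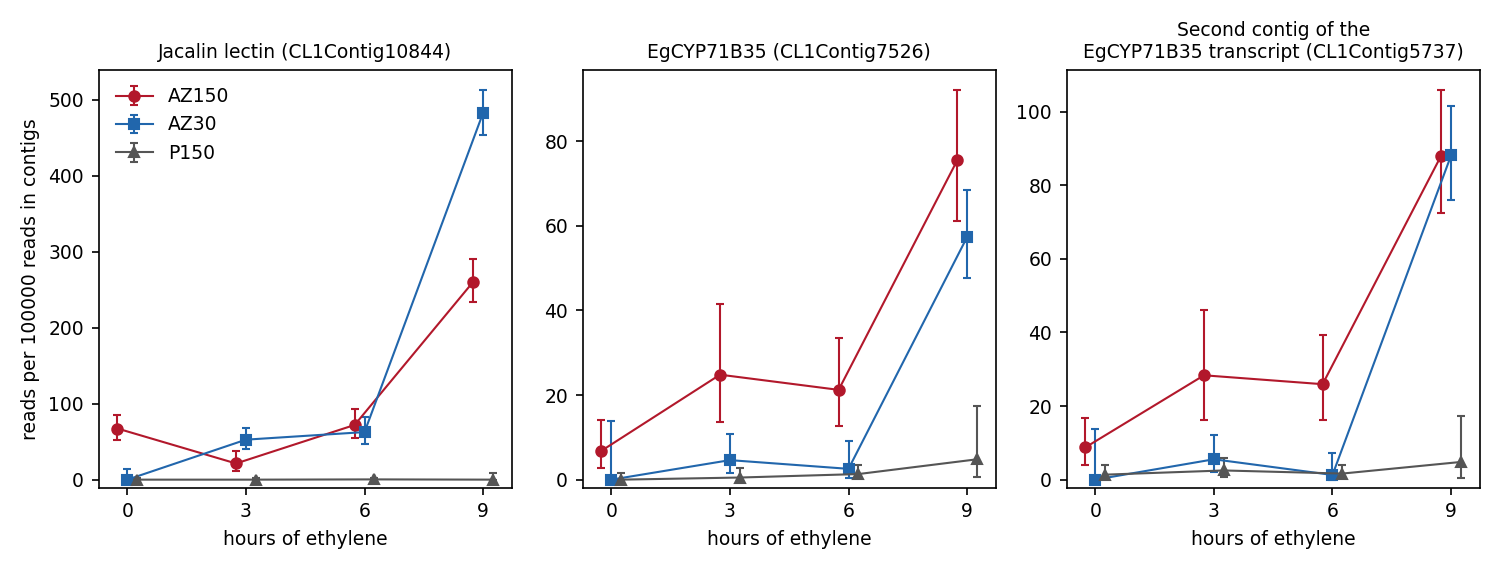
Level of the jacalin lectin contig, of the EgCYP71B35 contig and of the second contig paired with the same transcript in each of the 12 ethylene libraries, in reads per 100000 reads in contigs, against hours of ethylene, with exact 95% binomial intervals and 1 library per point (points are shifted sideways so that they do not overlap). Both contigs of EgCYP71B35 have the same shape, with the highest AZ values at 9 h, and the jacalin lectin stands at 260 in AZ150 and 483 in AZ30 at 9 h, while the P150 points stay at or near 0.

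The 0 h library of AZ30 enters each comparison of treated with untreated immature fruit. Neither contig had a read in it, but 3 reads there amount to a floor of 11.3 per 100000, and the exact 95% interval of a count of 0 reaches 13.9. The level of the EgCYP71B35 contig in untreated AZ150 (6.82) was below this floor. So among the 454 libraries of AZ30 both contigs had reads in the 3 treated libraries, and a level in the untreated one was not detectable at this depth. The field library of 30 DAP, described further on, came from untreated fruit and held both transcripts.

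A second contig, CL1Contig5737, is paired with the same RefSeq transcript as CL1Contig7526 (LOC105035265), although its closest Arabidopsis protein is listed as CYP71A26 rather than CYP71B35. It had 8.77, 28.4, 25.9 and 88.1 reads per 100000 at 0, 3, 6 and 9 h in AZ150. Its AZ30 levels were 0, 5.54, 1.28 and 88.1. Its P150 levels were 1.36, 2.50, 1.65 and 4.81. The order of the times was the same for both contigs in AZ150 and in AZ30. In the AZ150 libraries CL1Contig7526 held 43.8% to 46.7% of the reads of the pair, and in AZ30 at 9 h it held 39.4% of 312 reads. Whether the contigs are parts of 1 transcript, alleles or near-identical copies was not resolved, and reads could be split between them.

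The choice can be read against all contigs, as a description of it and with nothing else drawn from it. Of 6353 contigs with at least 50 reads, 14 (0.22%) had a mean level at least 20-fold above that of P150 in both AZ tissues. The jacalin lectin was one of the 14, and CL1Contig7526, with mean ratios of 19.4 for AZ150 and 9.73 for AZ30, was not. Near CL1Contig7526 but not chosen, CL1Contig5737 had mean ratios of 14.7 and 9.20, and EgPMEI, an inhibitor of pectin methylesterase, of 25.4 and 6.22. EgPG4, with no pedicel read and mean levels of 105 in AZ150 and 12.0 in AZ30, was not chosen either.

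After ethylene, both contigs rose in the AZ of ripe fruit, mainly by 9 h, and they differed at 3 h, when the jacalin lectin fell and EgCYP71B35 rose. Treated and 0 h libraries of a tissue were compared in pairs with the exact Audic and Claverie test, which asks whether both counts of a contig fit 1 abundance. It compares those libraries, not the conditions, and a contig was called at p under 0.01 without adjustment. The study adjusted these p-values with a Bonferroni correction, so the calls that such a correction removes are named with each comparison. At 3 h the jacalin lectin stood at 21.3 reads per 100000, against 67.2 at 0 h, 0.316-fold (95% interval 0.156 to 0.589; exact p = 4.49e-05). At 6 h it was at 71.9, 1.07-fold the 0 h level (0.745 to 1.53; exact p = 0.694), and at 9 h at 260, 3.87-fold (2.98 to 5.09; exact p = 4.45e-31). EgCYP71B35 was at 24.8 at 3 h, against 6.82 at 0 h, 3.64-fold (1.37 to 10.7; exact p = 0.00365), and 3.11-fold at 6 h (1.24 to 8.81; exact p = 0.00761). At 9 h it was at 75.5, 11.1-fold (5.17 to 28.3; exact p = 1.96e-17). In this tissue, 10.1%, 9.25% and 10.6% of contigs with at least 10 reads in the pair were called higher at 3, 6 and 9 h, and 6.68%, 6.98% and 11.2% lower. With the effective library sizes of edgeR's TMM method these shares were 8.65%, 9.25% and 13.5% higher and 9.63%, 7.05% and 8.99% lower.

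Of the AZ150 calls, those at 9 h held a Bonferroni correction and the 3 others did not. The 9 h rises had exact Audic and Claverie p, so adjusted, of 1.27e-26 for the jacalin lectin and 5.59e-13 for EgCYP71B35. Both contigs are in tables of contigs that the study called in these AZ150 libraries. The AZ150 p-values here and above, and those against AZ30 below, are thus in part fixed by that choice. With Benjamini-Hochberg adjustment over all contigs with a read, the fall of the jacalin lectin at 3 h had exact p = 0.00661 in the Audic and Claverie test, and the rises of EgCYP71B35 at 3 and 6 h had exact p = 0.176 and exact p = 0.267. The second contig of the transcript moved the same way, 3.23-fold, 2.96-fold and 10.0-fold at 3, 6 and 9 h. The 3 h library of AZ150 was the shallowest of its tissue (56408 reads), and the 12 jacalin lectin reads in it carry an interval of 11.0 to 37.2 per 100000, which lies below those of the 0 h (52.3 to 85.1) and 6 h libraries (55.0 to 92.4). Between treated libraries, a comparison chosen after the data were seen, the jacalin lectin was 12.2-fold higher at 9 h than at 3 h (6.91 to 23.9) and 3.62-fold higher at 9 h than at 6 h (2.75 to 4.84). EgCYP71B35 was 3.04-fold higher at 9 h than at 3 h (1.73 to 5.77), 3.56-fold higher at 9 h than at 6 h (2.13 to 6.25) and 0.855-fold at 6 h against 3 h (0.402 to 1.86). In these single libraries its level was thus higher by 3 h and higher again between 6 and 9 h. The earlier of these rises rests on 7 reads at 0 h and did not hold either adjustment. The summed carotenoid enzyme contigs, 19.5, 60.3, 90.8 and 130 at 0, 3, 6 and 9 h in AZ150, were higher at each later time, also at 3 h, when the jacalin lectin was lower than at 0 h, and their part in the result was not tested. Most of this sum was phytoene desaturase, at 16.6, 55.0, 74.3 and 101. Of the phytoene synthase contigs, CL1Contig7889 had 3, 0, 6 and 24 reads and CL1Contig21814 had 0, 3, 8 and 12.

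In the AZ of immature fruit the contigs rose as well, with the bulk of the change at 9 h. Both had reads there only in treated 454 libraries, so this rise is tied to their choice. The rise of the jacalin lectin was called at 3 h (57 reads against 0, at least 4.66-fold, interval from 3.67, exact p = 6.02e-06), at 6 h (49 against 0, at least 5.54-fold, interval from 4.34, exact p = 9.10e-07) and at 9 h (1035 against 0, at least 42.7-fold, interval from 34.7, exact p = 5.84e-53). EgCYP71B35 was called only at 9 h (123 against 0, at least 5.08-fold, interval from 4.07, exact p = 1.03e-06). After a Bonferroni correction the exact Audic and Claverie p was 0.150 and 0.0188 for the jacalin lectin at 3 and 6 h and 0.0290 for EgCYP71B35 at 9 h, so the jacalin lectin at 9 h (1.64e-48) was the AZ30 call that held. The 5 and 2 reads of EgCYP71B35 at 3 and 6 h stood at levels under the floor of the 0 h library, so no fold is given. For these the exact Audic and Claverie p was 0.537 and 0.833. In AZ30, 4.43%, 3.05% and 4.71% of contigs with at least 10 reads in the pair were called higher at 3, 6 and 9 h, and 6.78%, 5.64% and 8.63% lower. These shares depend on the scaling. With TMM, whose factor was 1.73 for AZ30 at 0 h and 0.743 at 9 h, 16.4%, 13.1% and 20.5% were called higher and 2.15%, 1.73% and 2.42% lower, and the folds of the members became at least 8.28, 8.58 and 99.4 for the jacalin lectin and at least 11.8 for EgCYP71B35. Comparisons between treated AZ30 libraries, again chosen after the data were seen, do not use the shallow 0 h library. Among these the jacalin lectin was 9.18-fold higher at 9 h than at 3 h (95% interval 7.03 to 12.2) and 7.71-fold higher at 9 h than at 6 h (5.79 to 10.5), and it did not differ between 6 and 3 h beyond counting error (1.19-fold, 0.795 to 1.77). EgCYP71B35 was 12.4-fold higher at 9 h than at 3 h (5.19 to 39.0) and 22.5-fold higher at 9 h than at 6 h (6.09 to 188). The summed carotenoid enzyme contigs of AZ30 stayed between 7.66 and 21.5, while EgPG4 had 0, 0, 1 and 100 reads at 0, 3, 6 and 9 h.

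In P150 the EgCYP71B35 contig had 0, 1, 4 and 2 reads and the jacalin lectin 0, 0, 1 and 0 reads at 0, 3, 6 and 9 h. At 3 and 6 h both contigs were at or under the level of 3 reads in the 0 h library. At 9 h, 3 reads amount to 7.21 per 100000 and 2 were found, so a response of CL1Contig7526 in the pedicel was not detectable at this depth. With the reads of CL1Contig5737 added, the level was 1.36 at 0 h (3 reads, 95% interval 0.280 to 3.96) and 9.62 at 9 h (4 reads, 2.62 to 24.6). These intervals overlap, and the difference was not tested.

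A fit across libraries gave no call for either contig. With edgeR's quasi-likelihood fit of treated minus 0 h libraries, which takes the spread of the single 0 h library from the treated ones, the log2 change in AZ150 was 1.07 for the jacalin lectin (edgeR adjusted p = 0.905) and 2.79 for EgCYP71B35 (edgeR adjusted p = 0.737). Without the 9 h libraries the value for the jacalin lectin became -0.47. In AZ30 the edgeR adjusted p was 0.711 for both, and 0.0355 for the jacalin lectin when contigs of low counts were kept. The difference of the effect between AZ150 and AZ30 had an edgeR adjusted p of 0.855 for the jacalin lectin and 0.857 for EgCYP71B35. In this fit edgeR called 0 of 10762 contigs (0.0%) in AZ150, in AZ30 and for the difference, with 727, 650 and 444 at an unadjusted p under 0.05, and DESeq2 called 11 higher and 2 lower in AZ150, 1 higher in AZ30 and 0 for the difference.

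The contigs differed in how they stood in ripe against immature AZ. At 0 h the jacalin lectin was at 67.2 in AZ150 and had no read in AZ30, at least 5.95-fold higher (interval from 4.71, exact Audic and Claverie p = 2.01e-07), or at least 9.99-fold with TMM scaling. At 3 h it was at 21.3 in AZ150 and 52.6 in AZ30, 0.404-fold (95% interval 0.198 to 0.762; exact p = 0.00244). At 6 h it was at 71.9 and 62.6, 1.15-fold (0.776 to 1.71; exact p = 0.471), and at 9 h at 260 in AZ150 and 483 in AZ30, 0.539-fold (0.475 to 0.611; exact p = 1.31e-24). It was thus higher in ripe AZ before ethylene and lower in it at 3 and 9 h. Of the contigs with at least 10 reads in the pair, 4.97% were called higher in AZ150 at 0 h, and 8.11% and 8.01% lower at 3 and 9 h. With TMM these shares were 16.8% higher at 0 h and 12.3% and 12.2% lower at 3 and 9 h.

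EgCYP71B35 was higher in ripe AZ at the middle times. It was at 24.8 in AZ150 and 4.61 in AZ30 at 3 h, 5.38-fold (95% interval 1.83 to 19.1; exact Audic and Claverie p = 0.000469), where 10.1% of contigs were called higher. At 6 h it was at 21.2 in AZ150 and 2.55 in AZ30, 8.31-fold (1.99 to 73.9; exact p = 0.000431), where 13.9% were called higher. With TMM these shares were 7.36% at 3 h and 15.2% at 6 h. At 9 h the values were 75.5 and 57.4, 1.32-fold (0.997 to 1.73; exact p = 0.0432), which is no call, and at 0 h the 7 reads of AZ150 stood under the floor of AZ30. The second contig was 5.12-fold and 20.3-fold higher in AZ150 at 3 and 6 h and 0.999-fold at 9 h (0.784 to 1.27). None of these 3 h and 6 h differences between the ages held a Bonferroni correction, for either contig. Over the time course, with time as an additive term, edgeR gave a log2 difference of AZ150 minus AZ30 of 0.13 for the jacalin lectin (edgeR adjusted p = 0.954) and of 1.66 for EgCYP71B35 (edgeR adjusted p = 0.0619). In that fit 2.51% of 10762 contigs were called higher in AZ150 and 1.85% lower. The times stand in for repeats there, so a difference between the ages that changes with time counts as spread. EgCYP71B35 passed the threshold with library totals in place of TMM (log2 1.62, edgeR adjusted p = 0.0405) and without the 9 h libraries (log2 2.73, edgeR adjusted p = 0.0289).

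The ratio of the contigs within a library does not depend on the library total. The reads of the jacalin lectin were 90.8% of those of both contigs in AZ150 at 0 h (95% interval 81.9 to 96.2), 46.2% at 3 h (26.6 to 66.6), 77.2% at 6 h (66.4 to 85.9) and 77.5% at 9 h (73.3 to 81.4). In AZ30 they were 91.9% at 3 h (82.2 to 97.3), 96.1% at 6 h (86.5 to 99.5) and 89.4% at 9 h (87.5 to 91.1). In the AZ150 libraries, EgCYP71B35 therefore took a larger share at all 3 treated times than at 0 h, with a two-sided Fisher's exact p of 7.06e-06 at 3 h, 0.0284 at 6 h and 0.00814 at 9 h. It also took a larger share in AZ150 than in AZ30 at 3 h (Fisher's exact p = 7.52e-06), 6 h (p = 0.00288) and 9 h (p = 6.10e-09). These 6 comparisons had Benjamini-Hochberg adjusted Fisher's exact p of 3.66e-08 to 0.0284. Each sets 1 library against 1 other with reads as the unit, so p covers counting error only and compares libraries, not conditions. The AZ150 library of 0 h held only 7 EgCYP71B35 reads. The shares use the AZ150 counts on which the study called its contigs, so they are not independent of that choice. The 4 comparisons with AZ30 at 0 h could not be made, since that library held no read of either contig. With the reads of both contigs of the EgCYP71B35 transcript summed, an alternative added after the data were seen, all 6 ratios lay on the same side, with Fisher's exact p of 3.02e-11 to 0.00231.

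**Figure D2:**
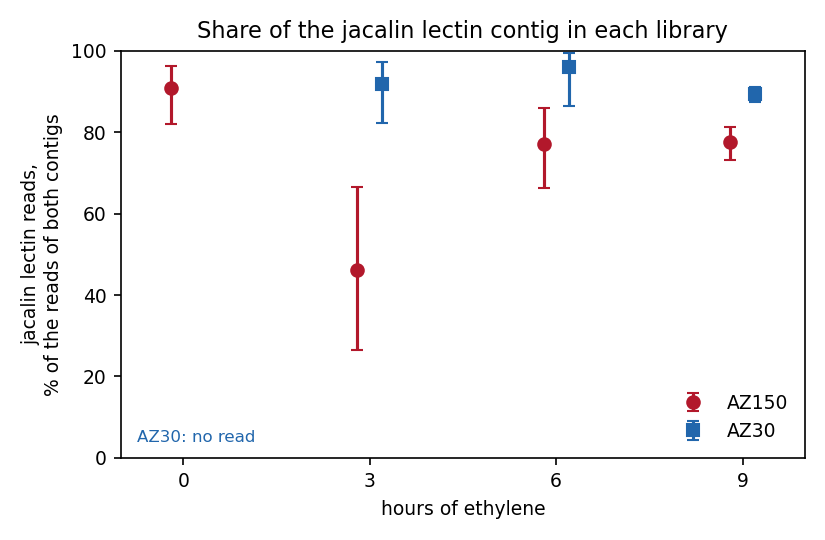
Reads of the jacalin lectin contig as a percent of the reads of the jacalin lectin and EgCYP71B35 contigs together, in AZ150 and AZ30 at each time, with exact 95% binomial intervals and 1 library per point. The AZ150 share is 46.2% at 3 h and 77.2% and 77.5% at 6 and 9 h, against 89.4% to 96.1% in treated AZ30, and AZ30 at 0 h had no read.

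EgCYP71B35 was read beside the other P450 contigs that the study's annotation tables name, 9 contigs besides the pair of its own transcript, 3 of them of family 71. These tables list contigs that the study called in AZ150. Their changes in AZ150, and with them their differences from AZ30, are thus in part fixed by that choice. All 9 were counted with no minimum of reads, while the shares beside them cover only contigs with at least 10 reads in the pair. In AZ150, 6, 2 and 7 of the 9 were called higher at 3, 6 and 9 h and none lower by the Audic and Claverie test. Of all contigs with at least 10 reads in the pair, 10.1%, 9.25% and 10.6% were called higher. The 3 h calls include the CYP76C2-like contig (6 against 1 reads) and the CYP704A2-like contig (8 against 1), which are under that minimum. In AZ30, 1, 0 and 2 of the 9 were called higher at these times, beside 4.43%, 3.05% and 4.71% of all. In AZ150 against AZ30, 0, 4, 4 and 3 were called higher at 0, 3, 6 and 9 h, beside 4.97%, 10.1%, 13.9% and 8.45% of all, and 1 was called lower, at 9 h, beside 8.01%. The median log2 difference of the 9 between AZ150 and AZ30, on reads per 100000 with 1 added, was 0.98 at 0 h, 1.76 at 3 h, 2.87 at 6 h and 0.03 at 9 h. Over all contigs with at least 10 reads in the pair it was 0.46, -0.05, 0.07 and -0.05 at these times. The P450 list was chosen in part on AZ150 values and the other contigs were not, so nothing further is drawn from this gap.

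The other family 71 contigs were spread over the tissues in different ways. EgCYP71A26 (CL1Contig25019) was at 20.5, 53.2, 34.2 and 158 reads per 100000 at 0, 3, 6 and 9 h in AZ150 and at 3.77, 1.85, 3.83 and 5.60 in AZ30. In P150 it was at 14.9, 64.4, 31.4 and 106, so its pedicel levels overlapped those of AZ150 and it was low only in AZ30. At 9 h EgCYP71A26 was 28.2-fold higher in AZ150 than in AZ30 (exact Audic and Claverie p = 2.19e-70), where EgCYP71B35 was at 1.32-fold. The contig similar to CYP71A25 (CL1Contig11194) was at 2.92, 24.8, 13.0 and 19.7 in AZ150, at 0, 19.4, 0 and 35.4 in AZ30 and at 1.36, 19.0, 20.2 and 9.62 in P150, with all 3 tissues overlapping. The contig similar to CYP71B34 (CL895Contig1) had 16 reads in AZ150, 7 in AZ30 and 1 in P150. Like EgCYP71B35 it was higher in both AZ tissues than in the pedicel, with mean ratios over P150 of 56.5 for AZ150 and 11.3 for AZ30, but on reads too few for an order of the times.

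Of the P450s of other families, EgC4H (CL1Contig9188), the cinnamate 4-hydroxylase of the phenylpropanoid pathway, was at 13.6, 46.1, 31.8 and 44.8 in AZ150, at 0, 12.9, 0 and 21.9 in AZ30 and at 5.88, 9.99, 0 and 2.40 in P150. EgCYP94D1 (CL1Contig6902) had 30 reads in AZ150, 3 in AZ30 and 19 in P150. The contig similar to CYP93D1 (CL1Contig8193) had reads in all 12 libraries, and 113 reads in AZ150, 163 in AZ30 and 129 in P150. The contigs similar to CYP76C2, to CYP704A2 and to GA3, the ent-kaurene oxidase of gibberellin synthesis, held 14 to 117 reads over the 12 libraries. The reductase contig similar to ATR1 (CL1Contig23725), which passes electrons to the P450s, was found in all 12 libraries, at 14.6, 51.4, 16.5 and 17.3 in AZ150, 30.1, 24.0, 6.38 and 17.3 in AZ30, and 20.4, 40.0, 10.9 and 26.4 in P150. Its pooled level was 21.6 in AZ150 and 17.8 in AZ30, against 22.1 in P150. No contig other than CL1Contig10844 is described as a jacalin lectin in these tables.

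**Figure D3:**
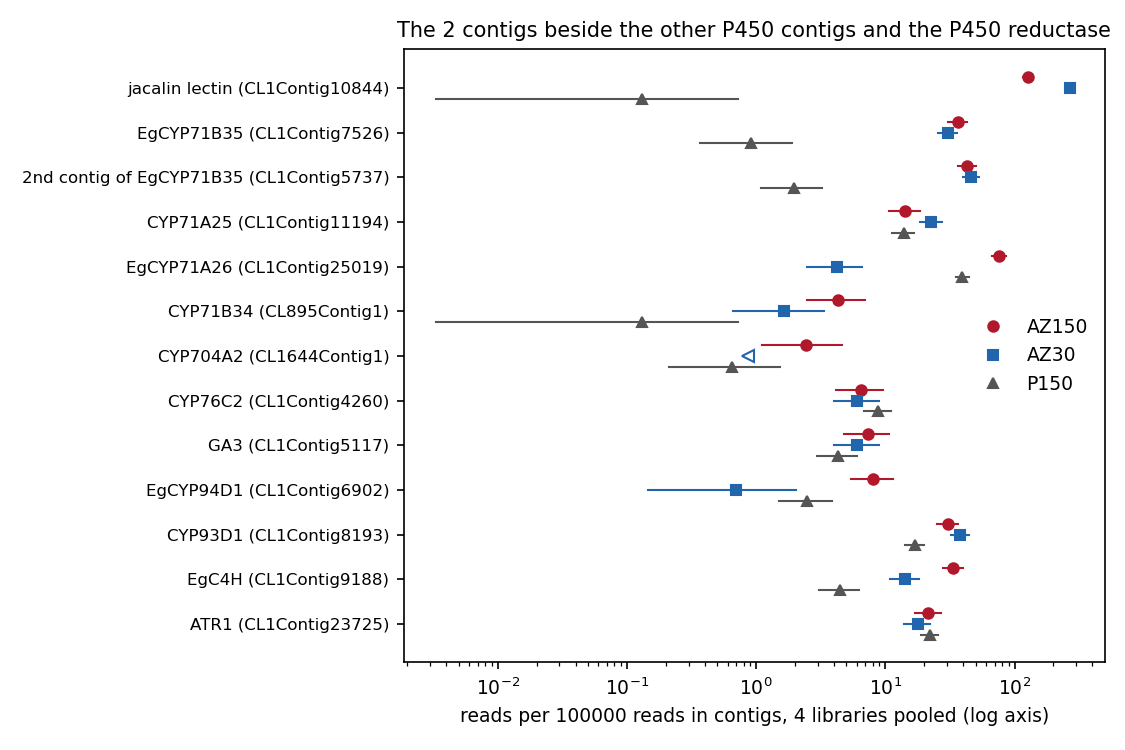
Level of each contig with the reads of the 4 libraries of a tissue pooled, in reads per 100000 reads in contigs on a log axis, for AZ150, AZ30 and P150, with exact 95% binomial intervals; the open triangle is the upper limit of a contig with no read. The jacalin lectin is at 128 and 267 in AZ150 and AZ30 and at 0.131 in P150, EgCYP71B35 is at 36.4 and 30.4 and at 0.915, EgCYP71A26 is lower in AZ30 (4.21) than in P150 (39.3), and the reductase similar to ATR1 is at 21.6 and 17.8 and at 22.1.

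The contigs whose levels over the 12 libraries were most like those of each member were listed by Pearson correlation of log2(reads per 100000 + 1) among 6353 contigs with at least 50 reads. These 12 points share 3 tissues, 4 times and the depth of each library, so the values are descriptions. For EgCYP71B35 they were CL1Contig5737 of its own transcript (r = 0.97), EgNYE1/SGR1, a stay-green protein of chlorophyll breakdown (r = 0.95), a contig similar to the telomere-binding TRFL2 (r = 0.93), EgPG4, a polygalacturonase that cuts pectin (r = 0.91), and EgPMEI (r = 0.91). EgNYE1/SGR1 was at 4.87, 19.5, 11.8 and 41.7 in AZ150, at 0, 2.77, 0 and 38.2 in AZ30 and at 0 to 2.98 in P150. EgPG4 was at 1.95, 39.0, 66.0 and 312 in AZ150 and at 0, 0, 1.28 and 46.6 in AZ30. Like EgCYP71B35, EgPG4 and EgPMEI had their highest AZ values at 9 h in both ages.

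For the jacalin lectin the likeness was weaker. The closest contigs were CL1Contig8751 (r = 0.89), CL1Contig10993 (r = 0.87) and CL1Contig8936 (r = 0.86), which carry no annotation in the tables used here, a contig similar to the sterol methyltransferase SMT1 (r = 0.85) and EgPHT5;3, a membrane protein with an SPX domain of phosphate signalling (r = 0.83). Among annotated contigs, EgCYP71B35 came next (r = 0.83), followed by CL1Contig1663 and CL1Contig22894, both similar to the MADS-box factor SEP3 (r = 0.82 for each). SMT1 was at 2.92, 1.77, 7.08 and 19.7 in AZ150 and at 3.77, 5.54, 10.2 and 11.7 in AZ30, so it was also lowest at 3 h in AZ150, on few reads. From the side of EgCYP71B35, the jacalin lectin was in place 22.

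During natural abscission in the field, both transcripts were higher at each later age. The authors' RPKM values are reads scaled to transcript length and to the mapped reads of the library, so levels of different transcripts can be compared. The jacalin lectin was at 13.2 RPKM at 30 DAP, 222 at 120 DAP and 3275 at 160 DAP, which placed it 8882nd, 389th and 24th of 44360 transcripts. EgCYP71B35, whose RefSeq transcript is shared by CL1Contig7526 and CL1Contig5737, was at 1.82, 135 and 381 RPKM, in places 25828, 760 and 179. The jacalin lectin was thus the higher of the pair at every age. There is 1 library per age, so these differences have no replicate check, and the depth behind the RPKM values is unknown.

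The steps differed between the transcripts. The jacalin lectin transcript was 16.8-fold higher at 120 than at 30 DAP and 14.8-fold higher at 160 than at 120 DAP. EgCYP71B35 was 74.6-fold higher at 120 than at 30 DAP, before shedding was seen, and 2.81-fold higher at 160 than at 120 DAP. Over the whole span the ratio of 160 to 30 DAP was 248 for the jacalin lectin and 210 for EgCYP71B35. Of transcripts with at least 1 RPKM in either library, 15.3% were at least 2-fold higher at 120 than at 30 DAP, 8.65% at 160 than at 120 DAP and 13.7% at 160 than at 30 DAP, on RPKM + 0.1. A ratio of 120 to 30 DAP as high as that of EgCYP71B35 was found in 0.165% of transcripts, and one as high as that of the jacalin lectin in 1.39%. For 160 against 120 DAP these shares were 5.14% and 0.934%, and for 160 against 30 DAP 0.519% and 0.419%. With RPKM rescaled by the median ratio over transcripts, a shift of 0.69 in log2 for 160 against 30 DAP, the ratios of 160 to 30 DAP became 398 and 337.

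Among the P450s in the field, EgCYP71A26 was at 1.07, 44.6 and 210 RPKM at 30, 120 and 160 DAP, and the transcript of the CYP71A25-like contig at 0.453, 109 and 152. That of the CYP71B34-like contig stayed at 2.25, 7.25 and 5.45. So all 4 family 71 transcripts, EgCYP71B35 included, had their larger fold step from 30 to 120 DAP, and 3 of the 4 were above 150 RPKM at 160 DAP. These folds start from low values at 30 DAP. In RPKM units EgCYP71B35 and EgCYP71A26 gained more from 120 to 160 DAP, and the other family 71 transcripts gained more from 30 to 120 DAP. The P450s of other families and the reductase, given next, also had their larger fold step from 30 to 120 DAP. This order of the steps was thus not particular to family 71. The lowest of the 3 above 150 RPKM, at 152, was in place 508 of 44360 transcripts at 160 DAP. The share of all transcripts with the larger fold at the first step was not computed. EgC4H was at 11.1, 180 and 480 RPKM, and the reductase similar to ATR1 at 50.8, 134 and 110. The CYP93D1-like transcript was high throughout, at 1345, 3781 and 3830 RPKM. The CYP76C2-like transcript was at 0.130, 13.7 and 168 RPKM, 106-fold higher at 120 than at 30 DAP and 12.2-fold at 160 than at 120 DAP. Its ratio of 160 to 30 DAP was 1293, on a low 30 DAP value, and was above that of every family 71 transcript here. The GA3-like transcript was at 4.13, 23.0 and 14.3 RPKM and the CYP704A2-like one at 2.39, 6.21 and 5.17. EgPG4, in contrast to EgCYP71B35, was at 4.83 and 35.9 RPKM at 30 and 120 DAP and at 1938 at 160 DAP, 54.0-fold higher at 160 than at 120 DAP. The phytoene synthase transcript measured in the field was at 27.4, 59.8 and 123 RPKM and phytoene desaturase at 0.358, 2.27 and 5.38, so the mesocarp markers were also higher at each later age, and their part in these differences was not tested.

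**Figure D4:**
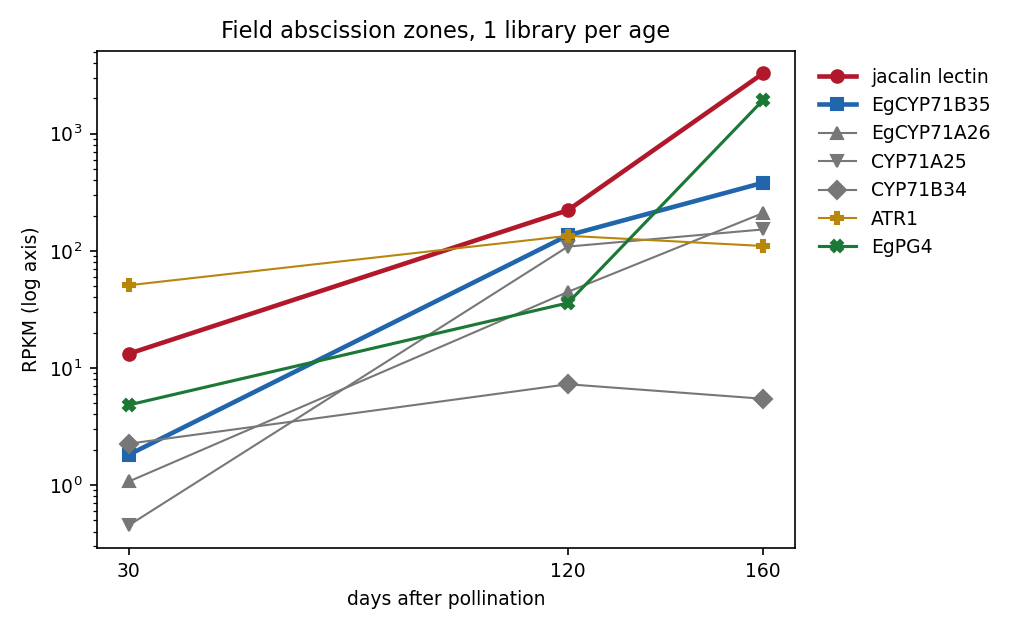
RPKM on a log axis of the jacalin lectin, EgCYP71B35, the other family 71 P450s, the P450 reductase similar to ATR1 and EgPG4 in field abscission zones at 30, 120 and 160 days after pollination, with 1 library per age and no error bars. EgCYP71B35 takes its larger fold step from 30 to 120 days (1.82 and 135 RPKM), EgPG4 from 120 to 160 days (35.9 and 1938 RPKM), and the jacalin lectin climbs at both steps to 3275 RPKM.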

How the data were processed

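Raw counts of 454 reads per contig (12 libraries) and RPKM values per RefSeq transcript (3 libraries) were used as the authors deposited them. Contigs come from 1 assembly by the authors of the pooled 454 reads. For the RPKM values, the submitters' processing notes name cutadapt, BWA and SAMtools, with versions not given in the sources used here. A further 17 columns of the deposited tables were not used. Samples were grouped by their labels. Counts, 1563975 in all, were scaled to library totals, tested in pairs with the Audic and Claverie test (Python 3.11.15, scipy 1.17.1) over all contigs, and fitted with edgeR 4.0.16 (quasi-likelihood, TMM, at least 3 reads in at least 4 libraries, adjusted p under 0.05) or DESeq2 1.42.0 in R 4.3.3. Scripts were tested on simulated data. Alternatives were other library scalings, Fisher's exact test, Bonferroni, no filter, each time left out (for the AZ and pedicel levels, added after the data were seen), summed contigs, rescaled RPKM and other similarity measures. Gene names come from the study's annotation tables. The members and lists were chosen with earlier results of these data known. Named genes are the members, contigs of their transcript, annotated P450 contigs, marker contigs and the 5 most similar contigs of each member, overall and among annotated ones. P450s of the field libraries were taken through the transcripts paired with these contigs.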

Additional observations from a re-analysis of the deposited data

Results flagged for a closer look

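The jacalin lectin moved in opposite directions in the 2 AZ tissues at 3 h against 0 h. It was at 21.3 reads per 100000 at 3 h and 67.2 at 0 h in AZ150, 0.316-fold, and at 52.6 at 3 h with no read at 0 h in AZ30, at least 4.66-fold. Each direction rests on 1 library per time. The difference at this single time was not tested. The edgeR fit of all treated times against 0 h takes those times as repeats, so it does not address a difference at 3 h alone.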

How the results depend on the processing

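Of 151 alternative values outside the leave-one-out fits, 135 were counted as unchanged. For tests this meant the same direction and side of the threshold, and uncalled results could not change side under Bonferroni. For ratios without a test it meant staying within a set factor of the main value, and for similar contigs keeping nearly all 5. A Bonferroni correction removed the Audic and Claverie call of the jacalin lectin in AZ150 at 3 h (0.316-fold), in AZ30 at 3 h (at least 4.66-fold) and 6 h (at least 5.54-fold) and between the ages at 3 h (0.404-fold), and of EgCYP71B35 in AZ150 at 3 h (3.64-fold) and 6 h (3.11-fold), in AZ30 at 9 h (at least 5.08-fold) and between the ages at 3 h (5.38-fold) and 6 h (8.31-fold). Without a filter on low counts, the jacalin lectin in treated AZ30 had an edgeR adjusted p of 0.0355, and with library totals EgCYP71B35 was called between the ages (log2 1.62, edgeR adjusted p = 0.0405); the cause was not tested. Rescaled RPKM gave 398 and 337 for 160 against 30 DAP, where the main values were 248 and 210. These kept their direction but were counted as changed. Of the 5 contigs most similar to the jacalin lectin, 3 were kept with a pseudocount of 10 and 2 with Spearman's rho, and for EgCYP71B35 5 and 2.

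With each time left out in turn, the log2 difference of AZ150 minus AZ30 ran from -0.76 to 0.60 for the jacalin lectin and from 1.22 to 2.73 for EgCYP71B35, called once, without 9 h (edgeR adjusted p of 0.0289 to 0.401). The treated minus 0 h change in AZ150 ran from -0.47 to 1.40 for the jacalin lectin and from 1.75 to 2.95 for EgCYP71B35. In AZ30 the edgeR adjusted p was 0.383 to 0.764 and 0.543 to 0.764, and for the difference between the ages 0.796 to 0.854 and 0.801 to 0.854, with no call. The ratio of mean levels over P150, left out the same way after the data were seen, ran from 485 to 1208 in AZ150 and 348 to 1808 in AZ30 for the jacalin lectin (1272 and 1808 with all times; none without 6 h, which holds the pedicel read), and from 16.9 to 29.0 and 3.93 to 11.7 for EgCYP71B35, lowest in AZ30 without 9 h.

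No paired analysis was possible because each combination of tissue and time is 1 library, so no replicate number links samples; the ages were matched by time alone, through the time term. No sum over the transcripts of a locus was run, since each member has 1 matched transcript. Depth limits AZ30 at 0 h most, where the floor of 3 reads is 11.3 per 100000.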
